A study of Drosophila melanogaster with 38 samples.

Results

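In whole Drosophila melanogaster larvae, 934 of the 3534 peaks of the deposited OGA ChIP-seq list lay in clusters on the autosomes, beside but not on peaks of O-GlcNAc. Each of the 934 was more than 1000 bp and at most 50000 bp from the nearest O-GlcNAc peak, and had at least 1 other OGA peak within 2000 bp, edge to edge. Chromosome X, the mitochondrial genome and the heterochromatin sequences were left out. The clustered peaks were 26.4% of the whole list and 32.5% of its 2878 autosomal peaks. Among the 1920 autosomal OGA peaks in the same distance range, 934 were clustered and 986 were not.

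O-GlcNAc is a single sugar, N-acetylglucosamine, that the transferase OGT attaches to serine and threonine residues of proteins in nucleus and cytoplasm, and that the hydrolase OGA removes. In flies OGT is encoded by super sex combs, a Polycomb group gene, and the Polycomb protein Polyhomeotic is one of its known substrates, so that O-GlcNAc on fly chromatin is best known at Polycomb response elements. In O-GlcNAc-seq, larvae eat an azide-bearing sugar, the azide enters O-GlcNAc, and the labelled chromatin is captured and sequenced. A chase on food without the azide then follows how long the label stays at each place.

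The series held 38 libraries, of which 32 formed the O-GlcNAc-seq time course and 2 the OGA ChIP-seq. OGA-null larvae (labelled OGA knockout) and wild-type (WT) Oregon R larvae, hatched from eggs laid on food with 150 uM Ac4GalNAz, grew there for 36 h. They then moved to food with DMSO only and were collected after 0, 4, 8, 12 or 16 h, or after 20, 24 or 36 h, with 2 replicate libraries for each genotype and time. Each library pools many whole larvae, so fewer labelled cells and less label per cell cannot be told apart. The OGA ChIP-seq used an antibody to MEGA5 and had 1 OGA-null and 1 WT library. Libraries of unfed larvae were not analysed here.

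The OGA list is 1 list for both ChIP-seq libraries, with positions and no score. OGA-null larvae lack the target of the antibody. Peaks called from their library cannot be told apart from peaks of the WT library, and the peaks are therefore described as deposited. The O-GlcNAc table gave 1883 peaks with 16 columns of signal, each of which combined both replicates of a genotype and time. No spread between replicates and no read depth could be given, and the sources used here do not state how the columns were scaled to each other. Comparisons of 1 column with another rest on that scaling. Intervals below cover counting error only, and neighbouring peaks are not independent. Positions are of build dm3, named in the submitters' notes. Genes and sequence at the peaks were not analysed here.

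The clusters were mostly pairs. When OGA peaks were chained wherever the gap to the next was at most 2000 bp, the 934 peaks fell into 370 clusters. Of these, 313 held only such peaks, and 57 also held OGA peaks nearer to or farther from O-GlcNAc than the range allows. Counting only the peaks in range, 215 clusters (58.1%) were pairs and 70 (18.9%) were triplets. Another 38 held a single peak in range, whose neighbour lay outside it. The 47 clusters of 4 or more peaks held 256 of the 934 (27.4%). The 4 richest held 15, 12, 11 and 10 peaks.

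Within a cluster the peaks were close together and covered little of the ground. The 332 clusters of at least 2 peaks spanned a median of 797 bp (quartiles 303 and 1629 bp, longest 8130 bp), and a median of 6.53% of that span lay inside peaks. Of the 564 gaps between adjacent peaks the median was 402 bp (quartiles 116 and 968 bp). 187 gaps (33.2%) were under 200 bp and 319 (56.6%) were under 500 bp. The ChIP chromatin was sheared to fragments of 200 to 500 bp, per the labels, so neighbours at such gaps lie within the length of 1 fragment, and whether they are separate places of binding was not tested. The smallest gap in the whole OGA list was 31 bp.

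**Figure D1:**
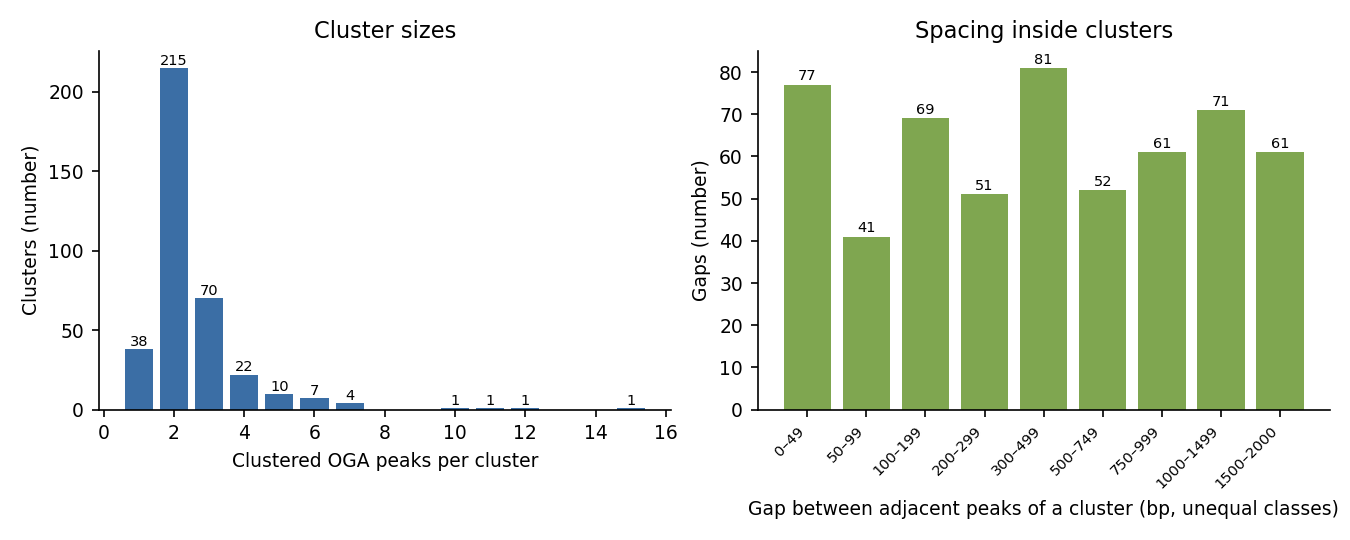
Number of clustered OGA peaks per cluster (clusters on the y axis) and gap in bp between adjacent peaks of a cluster, in classes of unequal width (number of gaps on the y axis). Pairs were the most frequent size, 215 of 370 clusters, and 319 of 564 gaps were under 500 bp.

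Each OGA peak was narrow. The clustered peaks had a median width of 17 bp (95% interval 15 to 20 bp), with quartiles at 5 and 40 bp and a maximum of 280 bp. Single bases made up 81 of them (8.67%), and 25 (2.68%) reached 100 bp. The unclustered peaks in the same distance range had a median of 15 bp (95% interval 14 to 17 bp), with 8 of 986 (0.811%) reaching 100 bp. The 209 clustered autosomal peaks within 1000 bp of O-GlcNAc had a median of 17 bp (95% interval 12 to 22 bp). The intervals of these medians overlap. All 934 clustered peaks together covered 25282 bp.

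The richest clusters held wider peaks. The median width was 23 bp (95% interval 19 to 28 bp) in clusters of 4 or more, 14.5 bp (11 to 20 bp) in triplets and 16 bp (12 to 18 bp) in pairs. The interval of the richest clusters overlaps that of triplets and not that of pairs. The widest peak of a cluster had a median width of 66 bp in clusters of 4 or more, against 39 bp in triplets and 29 bp in pairs. A cluster with more peaks has more chances of a wide one, so the second measure grows with size by its construction. Pairs were uneven: the wider of the 2 peaks held a median of 76.2% of the covered bases, and in 83 of the 215 pairs 1 peak was at most 5 bp wide and the other wider. The closest peak of a cluster lay at a median of 5040 bp from O-GlcNAc in clusters of 4 or more. It lay at 9170.5 bp in triplets and 9292 bp in pairs. A cluster with more peaks has more chances of a close one, so this gap shrinks with size by its construction.

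The 4 clusters with the most peaks in range are described with 1 of the 4 clusters tied at 7 peaks, taken because it covered the most bases. The richest lay at chr2R:529914-536202, where 15 peaks of 1 to 88 bp (median 44 bp) covered 711 of 6289 bp with a median spacing of 120 bp. Its nearest O-GlcNAc peak, 7321 bp away, was the 20 bp interval chr2R:543524-543543. The second, 12 peaks at chr3L:24162517-24169176, covered 372 of 6660 bp and lay 13617 bp from the O-GlcNAc peak chr3L:24182794-24182813. Both lie near the centromeric end of the mapped arm.

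The third, 11 peaks at chr3L:8731313-8735415, covered 360 of 4103 bp and lay far from O-GlcNAc, 24077 bp from the 100 bp peak chr3L:8759493-8759592. Its peaks were 8 to 62 bp wide (median 26 bp) and had a median spacing of 238 bp. The fourth had 10 peaks spread over 8130 bp at chr3R:25568211-25576340, the longest span of any cluster, and lay 1434 bp from the O-GlcNAc peak chr3R:25566757-25566776. The cluster taken from the tie, 7 peaks at chr2R:10113334-10116334, lay 3089 bp from chr2R:10110225-10110244 and covered 216 of 3001 bp. For 3 of the 4 richest the nearest O-GlcNAc peak was 20 bp wide.

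**Figure D2:**
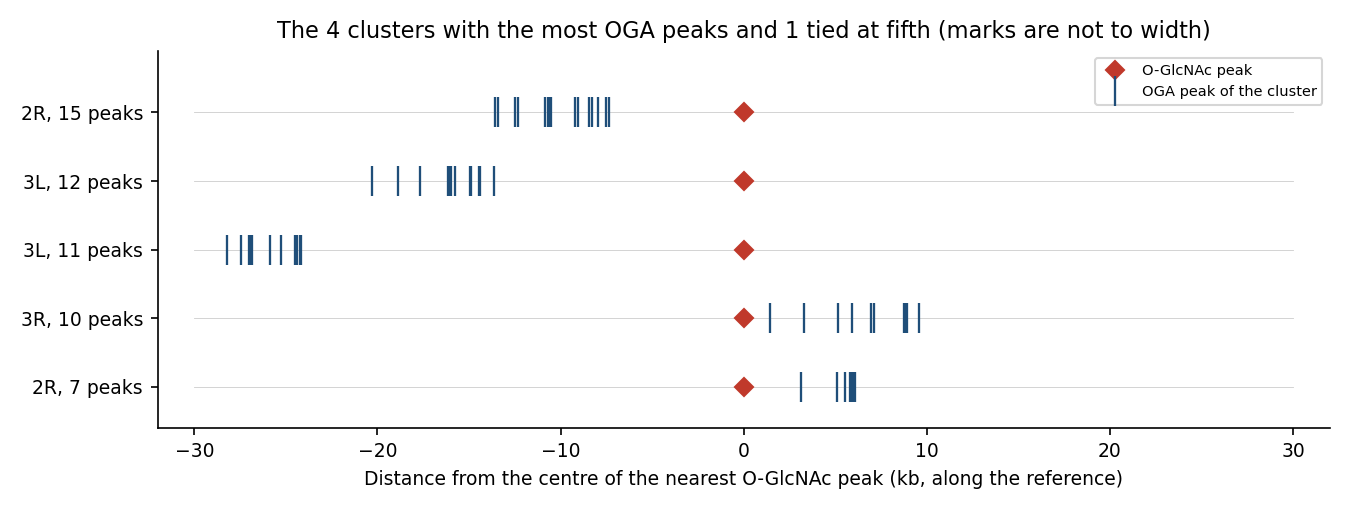
OGA peaks (vertical marks, not to width) of the 4 clusters with the most peaks and of 1 of the 4 tied at 7 peaks, by distance in kb from the centre of the nearest O-GlcNAc peak (x axis, diamond at 0, higher coordinates to the right). The clusters of 15, 12 and 11 peaks lie on the side of lower coordinates, and those of 10 and 7 on the side of higher coordinates.

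The widest clustered peaks stood far from O-GlcNAc in 4 of 5 cases. The widest, 280 bp at chr3L:8722666-8722945, belonged to a cluster of 5 and had a neighbour 270 bp away, but its nearest O-GlcNAc peak was 36547 bp off. That is chr3L:8759493-8759592, the same one as for the cluster of 11 peaks. The next, 253 bp at chr2L:12783275-12783527 and 225 bp at chr2L:12787495-12787719, were in 2 separate clusters and shared a nearest O-GlcNAc peak, the 241 bp interval chr2L:12822665-12822905, at 39137 and 34945 bp. The fourth, 208 bp at chr2L:15725904-15726111, had an OGA neighbour 46 bp away and lay 36561 bp from O-GlcNAc. The fifth, 203 bp at chr2R:16165289-16165491, was in a cluster of 7 OGA peaks of which only 2 were in range, and lay 3263 bp from the 145 bp peak chr2R:16161881-16162025.

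Within the range, clustering was more frequent close to O-GlcNAc than far from it. Among autosomal OGA peaks with a gap of over 1 kb and up to 5 kb, 326 of 577 (56.5%, Wilson 95% interval 52.4 to 60.5%) had a neighbour within 2000 bp. The share was 53.3% (195 of 366, interval 48.2 to 58.3%) up to 10 kb, 41.1% (156 of 380, 36.2 to 46.1%) up to 20 kb and 43.0% (257 of 597, 39.1 to 47.1%) up to 50 kb. Outside the range it was 53.0% (185 of 349, 47.8 to 58.2%) within 1 kb without overlap, 31.2% (24 of 77, 21.9 to 42.2%) for peaks that overlapped O-GlcNAc, and 30.3% (161 of 532, 26.5 to 34.3%) beyond 50 kb. The intervals below and above 10 kb within the range do not overlap. They treat each peak as independent, although neighbours are clustered together and lie at similar gaps, so they are too narrow. The gap and the neighbour distance are both part of the rule, and these shares are a description. Peaks that overlap O-GlcNAc were few, and their interval is wide.

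**Figure D3:**
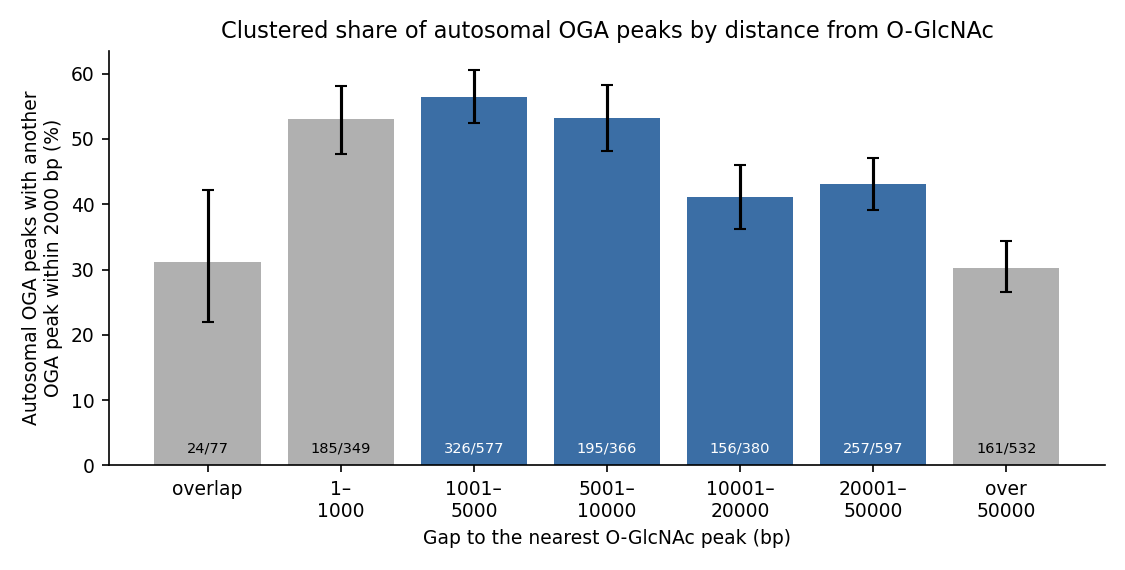
Share of autosomal OGA peaks with another OGA peak within 2000 bp (y axis, percent, error bars are Wilson 95% intervals; blue columns are in the distance range of the rule, grey ones outside it) by gap to the nearest O-GlcNAc peak (x axis, bp). The share was 56.5% from over 1 kb up to 5 kb and 30.3% beyond 50 kb.

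The clustered peaks were accordingly nearer to O-GlcNAc than the unclustered ones, with a median gap of 8431.5 bp (quartiles 3614.5 and 21105 bp) against 12947.5 bp (4902.5 and 25649 bp). The nearest O-GlcNAc peak was on the side of lower coordinates for 452 and of higher coordinates for 482. O-GlcNAc lay within 50 kb on both sides of 503 clustered peaks (53.9%) and of 431 unclustered peaks (43.7%). Both kinds had a median of 3 O-GlcNAc peaks within 50 kb, up to 26 around clustered and 23 around unclustered peaks. The median number of other OGA peaks within 50 kb was 10 around clustered peaks and 4 around unclustered ones, a difference that the neighbour rule itself favours.

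By arm, 3L held the most clustered peaks, 275 in 100 clusters, or 37.5% of its 733 OGA peaks. The numbers were 251 of 779 on 3R (32.2%), 204 of 652 on 2L (31.3%) and 204 of 701 on 2R (29.1%), and none of the 13 on chromosome 4. Arm 3L thus held 29.4% of the clustered peaks, 25.5% of autosomal OGA peaks and 24.6% of autosomal O-GlcNAc peaks. The median width was 20 bp on 2L, 17 bp on 2R and 3L, and 16 bp on 3R.

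OGA peaks lay close to both sides of the 3 limits of the rule. The nearest clustered autosomal peak inside the lower gap limit was chr3R:4497666-4497669, at 1001 bp, and the nearest outside was chr3L:5760533-5760537, at 994 bp. At the upper limit these were chr3R:2283416-2283421, at 49965 bp, and chr2R:7853017-7853022, at 50172 bp. For the distance to a neighbour, over autosomal peaks in the distance range, they were chr3R:21844878-21844886, at 1983 bp, and chr3L:3229453-3229478, at 2005 bp. In the 100 bp just inside the lower gap limit lay 8 clustered autosomal OGA peaks, against 21 in the 100 bp just outside it. In the 1000 bp on either side of the upper limit lay 7 clustered autosomal peaks each. Of all autosomal OGA peaks in the distance range, 21 lay in the 100 bp inside the neighbour limit, against 19 in the 100 bp outside it.

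The 934 clustered OGA peaks had 304 nearest O-GlcNAc peaks, 18.3% of the 1661 on the autosomes. A nearest O-GlcNAc peak served a median of 2 clustered OGA peaks and at most 16. For 140 it was 2 and for 37 it was 1, and the 44 that served 5 or more accounted for 338 of the 934 (36.2%). The clustered OGA peak nearest to each lay at a median of 4893 bp. Some of the 304 also had OGA closer by: 124 had an OGA peak within 1000 bp, and 18 of these overlapped one. Of the 1357 other autosomal O-GlcNAc peaks, 310 had an OGA peak within 1000 bp, and 55 of these overlapped one. The classes thus differ in how often OGA lies close by.

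These 304 peaks were somewhat narrower than the other 1357 autosomal O-GlcNAc peaks, with a median of 29.5 bp (95% interval 22 to 38 bp) against 37 bp (34 to 40 bp). Of the 304, 133 (43.8%) were 20 bp wide, against 468 (34.5%) of the others. Because signal grows with width, it is given per base. At the start of the chase both classes carried like amounts of label. In OGA-null larvae the median was 22.7 signal per base in the nearest peaks and 22.7 in the others. In WT larvae it was 32.4 in the nearest peaks and 32.8 in the others.

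During the chase the label left the 304 peaks slowly in OGA-null and fast in WT larvae. The median share of the 0 h signal left in OGA-null larvae was 98.7% (4 h), 76.2% (8 h), 63.2% (12 h), 50.2% (16 h), 30.5% (20 h), 12.3% (24 h) and 6.93% (36 h). In WT larvae it was 48.3% (4 h), 32.5% (8 h), 16.8% (12 h), 13.7% (16 h), 8.11% (20 h), 3.28% (24 h) and 0.606% (36 h). In OGA-null larvae 139 of the 304 peaks were above their own 0 h value at 4 h, and 5 were at 8 h. In the WT 36 h column 5 of the 304 peaks were listed at 0.

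As levels, the medians per base in OGA-null larvae were 22.7 before the chase, then 22.5 (4 h), 17.0 (8 h), 14.3 (12 h), 11.5 (16 h), 7.0 (20 h), 2.76 (24 h) and 1.56 (36 h). In WT larvae they were 32.4, 15.7, 10.7, 5.41, 4.48, 2.62, 1.10 and 0.20 at the same times. OGA-null was the lower genotype at 0 h and the higher one at every later time. Apparent half-lives, from a straight line through log2(signal + 1) over the 8 times, had a median of 8.50 h (95% interval 8.42 to 8.60 h) in OGA-null and 5.19 h (5.07 to 5.27 h) in WT larvae. From the 5th to the 95th percentile of peaks they ran between 7.31 and 9.91 h in OGA-null and between 4.08 and 6.05 h in WT. The loss did not follow a straight line on this scale. In OGA-null larvae a median of 76.2% was left at 8 h and 50.2% at 16 h, and in WT larvae 48.3% at 4 h. The apparent half-lives thus sum up the slope over the whole chase and are not times to a given share left. In OGA-null larvae the half-life was longer at all 304. So it was at 100% of the 1883 O-GlcNAc peaks, so that the count is the background.

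**Figure D4:**
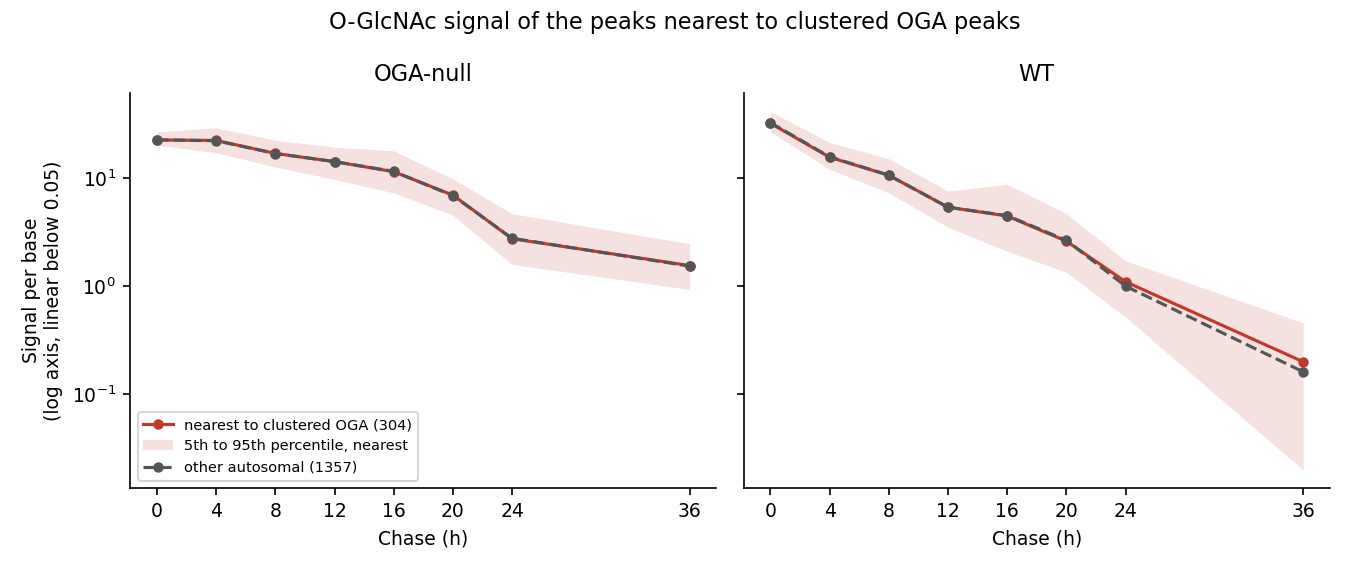
Median signal per base (y axis, log scale, linear below 0.05; shading is the 5th to 95th percentile of the nearest peaks) by chase time (x axis, hours) of the 304 O-GlcNAc peaks nearest to clustered OGA peaks and of the 1357 other autosomal O-GlcNAc peaks, in OGA-null and WT larvae. The classes lie close together in OGA-null, and part in WT at 36 h, with medians of 0.20 in the nearest and 0.162 in the other peaks.

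The ratio of OGA-null to WT signal gives the same picture peak by peak. Its median over the 304 was 0.691 before the chase, 1.41 (4 h), 1.59 (8 h), 2.57 (12 h), 2.48 (16 h), 2.59 (20 h) and 2.60 (24 h). At 36 h it was 7.62 over the 299 peaks with WT signal above 0. With 1 added to the signal, the median of the log2 ratio rose with chase time by 0.0757 ± 0.0116 per hour (SE of the line fit, 8 times; Pearson's r = 0.936, exact two-sided permutation p = 0.000273; Spearman's rho = 0.881, exact permutation p = 0.00724). Without 0 and 36 h, the 2 times farthest from the median time, r was 0.845 (exact permutation p = 0.0306) and rho 0.714 (exact permutation p = 0.136) over 6 times. The test takes the times as equally variable, and its rate of false calls for this ratio was not simulated. The rise was stepped: the ratio changed little between 12 and 24 h. It was not particular to the 304 peaks. In the other 1357 autosomal O-GlcNAc peaks the median ratio was 0.691 at 0 h and 2.81 at 24 h. At 36 h it was 9.71 over the 1330 of them with WT signal above 0.

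The number of nearest peaks past a fixed ratio followed the background of all 1883 O-GlcNAc peaks. At 0 h all 304 were lower in OGA-null than in WT, against a background of 99.8%. The ratio of OGA-null to WT was over 2 in 7 of 304 at 4 h (2.30%, background 1.38%) and in 36 at 8 h (11.8%, background 11.8%). It was over 2 in 271 at 12 h (89.1%, background 90.1%) and in 237 at 16 h (78.0%, background 80.1%). At 20 h it was over 2 in 235 (77.3%, background 80.5%), and at 24 h in 245 (80.6%, background 80.7%). These shares lie near the background and are no result about the 304 peaks.

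The O-GlcNAc peak that served the most clustered OGA peaks, 16, was chr3L:8759493-8759592. In OGA-null larvae its signal per base was 24.9, 24.0, 19.5, 16.1, 13.8, 8.03, 3.55 and 2.27 from 0 to 36 h. In WT larvae it was 40.7, 20.6, 12.5, 6.80, 7.28, 2.78, 1.40 and 0.0374. Its apparent half-life was 9.35 h in OGA-null and 3.97 h in WT larvae, the WT value being below the 5th percentile of the 304.

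The 20 bp peak beside the richest cluster, chr2R:543524-543543, served 15 clustered OGA peaks and had another OGA peak 42 bp away. Its signal per base in OGA-null larvae was 22.0, 19.3, 13.8, 13.2, 7.48, 5.00, 1.34 and 1.12 from 0 to 36 h. In WT larvae it was 35.4, 15.0, 8.51, 3.18, 3.4, 2.58, 1.42 and 0.111. At 24 h the ratio of OGA-null to WT was 0.945 there, the lowest of the 304 at that time, and the half-lives were 7.43 h in OGA-null and 5.05 h in WT. The third, chr3L:4792383-4792402, served 14 and had half-lives of 8.18 h in OGA-null and 5.34 h in WT larvae.

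The nearest peaks with the strongest WT label at 0 h were chr2L:13211944-13212007 (55.3 signal per base), chr3R:24365926-24366161 (51.2) and chr2R:4536956-4537215 (49.1). In OGA-null larvae the first had 34.2 at 0 h and 40.3 at 4 h, and stayed at 29.5 at 16 h, whereas WT larvae had 18.2 at 16 h and 0.0219 at 36 h. Its half-life was 10.8 h in OGA-null and 3.84 h in WT. The other two had half-lives of 9.08 and 8.57 h in OGA-null, and of 4.46 and 4.48 h in WT. They lay 9209 and 42284 bp from the closest clustered OGA peak.

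Among nearest peaks of at least 50 bp, the longest WT half-lives were 6.14 h at chr3L:5668065-5668152, 6.11 h at chr3R:7504763-7504832 and 6.10 h at chr3R:12089351-12089410. OGA-null half-lives there were 7.19, 7.21 and 8.51 h, in the same order. Each of these 3 had an OGA peak within 1000 bp, at 412, 227 and 948 bp. The shortest WT half-lives were 3.31 h at chr3L:603941-604034, 3.55 h at chr3R:7048380-7048509 and 3.55 h at chr3R:6230472-6230544, with 9.37, 8.13 and 7.64 h in OGA-null. The first and the last of these were listed at 0 in the WT 36 h column, and the second had 0.00544 signal per base there. Their 36 h points, and with them these short half-lives, depend on the 1 added to the signal. Of these 3, only chr3R:7048380-7048509 had an OGA peak within 1000 bp, at 275 bp. Among all 111 nearest peaks of at least 50 bp, 45 had an OGA peak within 1000 bp. The peaks named here are too few to be set against that count.

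Set against the other 1357 autosomal O-GlcNAc peaks, the 304 had a higher median share of label left at 36 h of the WT chase. At 24 h the median share left in WT larvae was 3.28% (95% interval 3.06 to 3.46%) in the nearest peaks and 3.02% (2.95 to 3.10%) in the others, and these intervals overlap. At 36 h it was 0.606% (0.543 to 0.726%) in the nearest peaks and 0.469% (0.445 to 0.495%) in the others. In OGA-null larvae the shares at 24 h were 12.3% in the nearest and 12.2% in the other peaks, and at 36 h 6.93% in the nearest and 6.76% in the others. WT half-lives were 5.19 h in the nearest and 4.93 h in the other peaks (95% interval of the others 4.89 to 4.96 h). OGA-null half-lives were 8.50 h in the nearest and 8.48 h in the others.

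The difference in median log2 share left, nearest minus other, was tested for a trend over the 8 chase times, since a factor common to a column cancels between the classes except for the pseudocount. It starts at 0 by construction. In WT larvae it was 0.01, -0.00413, 0.04, 0.00, 0.01, 0.12 and 0.37 at the 7 later times, from 4 to 36 h. It rose by 0.00917 ± 0.00252 log2 units per hour (SE of the line fit; r = 0.829, exact two-sided permutation p = 0.00707, 0.0106 with Benjamini-Hochberg adjustment over 3 relations). Spearman's rho was 0.690 (exact permutation p = 0.0694, adjusted 0.104), which misses the threshold of 0.05. In OGA-null larvae it was 0.02, 0.02, 0.01, -0.02, 0.00, 0.02 and 0.05 at the same times. The slope there was 0.000821 ± 0.000585 (r = 0.497, exact permutation p = 0.201, adjusted 0.201; rho = 0.381, p = 0.360).

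The genotypes were then compared. The class difference in OGA-null minus that in WT had a slope of -0.00835 ± 0.00212 log2 units per hour (r = -0.849, exact permutation p = 0.00350, adjusted 0.0105; rho = -0.810, p = 0.0218, adjusted 0.0653). Without 36 h the WT slope was 0.00334 (adjusted exact permutation p = 0.170) and the difference between genotypes -0.00344 (adjusted p = 0.168). Without 24 h the slopes were no smaller, 0.00950 in WT and -0.00867 for the difference, but over the 7 times left neither passed the threshold (adjusted exact permutation p = 0.0789 for each). Without both 0 and 36 h, r was 0.626 in WT (exact permutation p = 0.183), -0.255 in OGA-null (p = 0.650) and -0.759 for the difference between genotypes (p = 0.0639). The WT 36 h column is also the lowest, with a median of 0.20 signal per base in the nearest peaks, and the part of its low signal in the result was not tested. The exact test takes the values at the 8 times as equally variable, which they were not: in WT larvae the share left in the nearest peaks ran from 37.8 to 59.6% at 4 h and from 0.0924 to 1.49% at 36 h (5th to 95th percentile). In simulations with the scatter of each column and no class difference, the test passed its threshold too often, so the p-values of the class trends are too small and those calls are weak.

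**Figure D5:**
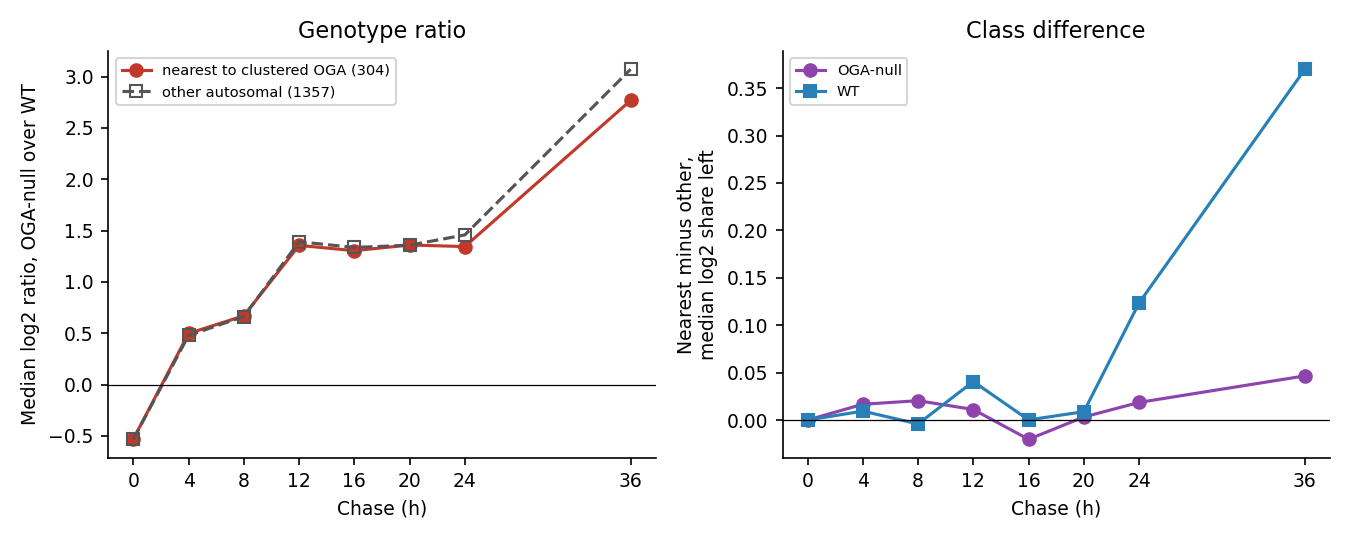
Median log2 of the ratio OGA-null over WT signal by chase time (hours) in the nearest and the other autosomal O-GlcNAc peaks, and the difference in median log2 share left, nearest minus other, in OGA-null and WT larvae. The WT difference reached 0.12 at 24 h and 0.37 at 36 h, and the OGA-null difference 0.05 at 36 h.

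The direction of the late WT difference was the same on each of the 4 large arms. At 36 h the median share left in WT larvae was 0.547% in the nearest and 0.474% in the other peaks on 2L. It was 0.613% in the nearest and 0.441% in the others on 2R. It was 0.721% in the nearest and 0.548% in the others on 3L, and 0.539% in the nearest and 0.457% in the others on 3R. At 24 h the nearest peaks were also higher in WT on 4 of 4 arms. In OGA-null larvae they were higher on 4 of 4 arms at 36 h and on 1 of 4 at 24 h. At 4, 8, 12, 16 and 20 h they were higher on 3, 1, 2, 1 and 1 of 4 arms in WT larvae. In OGA-null larvae the numbers at these times were 3, 3, 2, 1 and 2. The arms are read from the same columns and are not replicates of each other.

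Peak width and OGA close by moved with the share left in WT at 36 h, and their part in the class difference is given by values within each stratum. Within peaks of at least 50 bp the median share was 0.489% (95% interval 0.419 to 0.574%) in the nearest and 0.390% (0.363 to 0.433%) in the others. Within narrower ones it was 0.704% (0.598 to 0.795%) in the nearest and 0.527% (0.490 to 0.566%) in the others. The intervals of the classes overlap in the wider peaks and not in the narrower ones. With peaks of at least 50 bp only, the WT slope of the class difference was 0.00825 (adjusted exact permutation p = 0.0141). Spearman's rho was 0.548 there (exact permutation p = 0.171). With an OGA peak within 1000 bp, the median WT share at 36 h was 0.754% (95% interval 0.577 to 0.840%) in the nearest and 0.560% (0.497 to 0.629%) in the others. Without one it was 0.529% (0.478 to 0.665%) in the nearest and 0.445% (0.422 to 0.475%) in the others. The intervals of the classes overlap where OGA lay within 1000 bp, and elsewhere fall just short of it. With O-GlcNAc peaks that had OGA within 1000 bp left out of both classes, the WT slope was 0.00764 (adjusted exact permutation p = 0.0166). Spearman's rho was then 0.714 (exact permutation p = 0.0576).

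Another comparison was with the 482 O-GlcNAc peaks nearest to unclustered OGA peaks in the same distance range and to none of the 934. The difference was of like size, with a WT slope of 0.00897 (adjusted exact permutation p = 0.0151; Spearman's rho = 0.548, exact permutation p = 0.171). Those 482 peaks had median half-lives of 8.45 h in OGA-null and 4.91 h in WT larvae. Among the 304, the WT share at 36 h was 0.739% (95% interval 0.613 to 0.803%) for the 154 whose closest clustered OGA peak was within 5 kb. It was 0.496% (0.430 to 0.636%) for the 91 at up to 20 kb and 0.514% (0.416 to 0.736%) for the 59 farther off, and these intervals overlap. Across the 304 peaks the number of clustered OGA peaks served had a Spearman's rho of 0.0667 with the OGA-null half-life and 0.0570 with the WT half-life. The gap of the closest one had a rho of 0.02 with the OGA-null and -0.110 with the WT half-life. These are descriptions, as the peaks share the same 16 columns.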

How the data were processed

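OGA ChIP-seq and O-GlcNAc-seq of fly larvae were analysed from the deposited tables. SAMtools, bedtools 2.17.0, dm3 and sacCer3 are named, without roles, in the submitters' processing notes. The sources used here name no aligner, peak caller or scaling. Per the file headers, each of the 16 columns of signal combines replicates 1 and 2, so depth and the spread between replicates are unknown. Positions are those deposited, plus 1 at the start.

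Python 3.11.15 with numpy 2.4.6, pandas 2.3.3, scipy 1.17.1 and matplotlib 3.10.9 was used. Gaps were measured edge to edge. Half-lives are -1 over the least-squares slope of log2(signal + 1) against hours. Trends over 8 times were tested by exact two-sided permutation over all 40320 pairings, the 3 class relations with Benjamini-Hochberg adjustment. These tests stand in for fits per library, which the combined columns do not allow. On simulated data with equal scatter at every time the tests of the 3 class relations called trends at about the nominal rate. With the scatter measured in each column they did so too often. False calls of the trend of the genotype ratio were not simulated. Medians have binomial order-statistic intervals.

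Named in the text are the 5 clusters with the most peaks, the 5 widest clustered peaks, and the O-GlcNAc peaks with the most clustered OGA peaks, the highest WT 0 h signal per base or, from 50 bp of width, the longest or shortest WT half-lives, 3 each. The clusters and these rules were chosen with earlier results of these data known.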

Additional observations from a re-analysis of the deposited data

Results flagged for a closer look

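The change over the chase in the class difference, nearest minus other autosomal O-GlcNAc peaks, differed between the genotypes: OGA-null minus WT had a slope of -0.00835 log2 units per hour (adjusted exact permutation p = 0.0105). By Spearman's rho the adjusted exact permutation p was 0.0653. Without 36 h the slope was -0.00344. The scatter of the values differed between times, which makes this p too small, and the cause was not tested.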

How the results depend on the processing

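No paired analysis was possible because each column combines replicates 1 and 2; leaving out each replicate was not run for the same reason. The number of clustered OGA peaks was 672 to 1232 under 8 alternatives, lowest when OGA peaks closer than 200 bp were merged and highest with neighbours up to 5 kb away; merging also moved the median width to 23 bp. The rise of the OGA-null to WT ratio kept its direction and its side of the threshold under 21 of 21 alternatives, with slopes of 0.0517 to 0.0847 log2 units per hour. The WT class trend kept both under 22 of 24, and was past the threshold neither without 36 h (0.00334) nor without 24 h (0.00950). The difference between genotypes likewise kept both under 22 of 24, the exceptions being without 36 h (-0.00344) and without 24 h (-0.00867). Only the setting without 36 h left out that column, which holds the largest WT difference, so the other settings do not test its part. These counts rest on Pearson's r. By Spearman's rho the unadjusted exact permutation p ran from 0.00456 to 0.428 in WT and from 0.00456 to 0.327 for the difference between genotypes. The OGA-null class trend passed the threshold with gaps over 500 bp (0.00130, adjusted exact permutation p = 0.00620) and over 2000 bp (0.000937, adjusted p = 0.0138), and turned negative with O-GlcNAc peaks of at least 50 bp (-0.000962) and without 36 h (-0.000105). The causes were not tested. Leaving out 4, 8, 12, 16, 20 or 24 h, or the clustered OGA peaks in the centromeric 1 Mb of each arm, was chosen after seeing the data. Depth is unknown, and low WT signal at 36 h limits the late shares.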

Other observations

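OGA peaks were counted at the centromeric ends of the mapped arms, measured from the last OGA or O-GlcNAc peak there, a comparison chosen after the values were seen. Within 1 Mb of that end lay 97 of 934 clustered peaks (10.4%), 62 of 985 unclustered peaks in the same distance range on the 4 large arms (6.29%), 251 of all 2865 OGA peaks of these arms (8.76%) and 51 of 1660 O-GlcNAc peaks (3.07%). By arm the clustered peaks numbered 41 on 2R, 31 on 2L, 20 on 3L and 5 on 3R. Within 2 Mb the shares were 12.4% of clustered, 11.4% of unclustered, 12.6% of all OGA and 6.81% of O-GlcNAc peaks. Whether reads from repeats contribute there was not tested. When the clustered OGA peaks within 1 Mb of these ends were left out, 283 O-GlcNAc peaks were nearest and 1378 were others. No O-GlcNAc peak was left out, so those at the ends stayed in the comparison. The WT slope of the class difference was then 0.00820 (adjusted exact permutation p = 0.0258; Spearman's rho = 0.429, exact permutation p = 0.299).

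Across the 304 O-GlcNAc peaks nearest to clustered OGA peaks, the OGA-null and WT half-lives had a Spearman's rho of -0.0995. Peak width had a rho of 0.0524 with the OGA-null and -0.286 with the WT half-life. These are descriptions, since the peaks share their columns and narrow peaks have less signal.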
